A study of Homo sapiens with 24 samples.

Results

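Glycerol enters and leaves cells through a small group of membrane channels and is used inside them by a few enzymes, and 7 genes of this group were followed here among the 61860 genes of each count table. The genes were AQP3, AQP7, AQP9, GK, GPD1, GPD1L and GPD2. They were chosen from a list of symbols on the basis of earlier results of these same comparisons, so their values are given as a description and no p-value is attached to them. Each symbol matched 1 Ensembl identifier. RNA was sequenced from OE33 cells, a human line of esophageal adenocarcinoma, in 4 experiments with 3 treated and 3 control libraries each.

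In the first experiment OE33 cells grew for 21 days as subcutaneous xenografts in male BALB/c-nu nude mice, which were bought at an age of 4 weeks and fed for 8 weeks before injection. The HFD group received a diet with 35% fat and the ND group a diet with 4.3% fat, and mice on the HFD were additionally defined by a body weight above a limit set from the ND group. Nude mice lack T cells, and tumors grown in mice can hold mouse cells, whose reads cannot be followed in tables of human genes. In the other 3 experiments OE33 cells were cultured and transfected with plasmids. TRIM15-OE cells carried HA-TRIM15 and TRIM15-EV cells the empty vector, for 48 h. YY2-sh and FOXRED1-sh cells carried short hairpin RNAs against YY2 or FOXRED1 (shYY2 and shFOXRED1), and YY2-NC and FOXRED1-NC cells the shControl of the respective experiment, for 72 h. The labels do not name the hairpin that was sequenced, nor whether replicates were separate cultures or separate mice, so errors describe the spread between libraries, which may be technical.

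Aquaglyceroporins are water channels that also let glycerol pass. AQP3 is the form of many epithelia, AQP7 is best known for releasing glycerol from fat cells and AQP9 for taking it up into liver cells. Glycerol kinase, encoded by GK, turns glycerol into glycerol-3-phosphate, the backbone of triglycerides and phospholipids. The same metabolite is made from dihydroxyacetone phosphate, an intermediate of glycolysis, by the cytosolic NADH-dependent dehydrogenase GPD1, of which GPD1L is a close relative. GPD2, a flavoprotein of the inner mitochondrial membrane, oxidises glycerol-3-phosphate and hands the electrons to ubiquinone. The cytosolic and mitochondrial enzymes together form the glycerol phosphate shuttle, which carries reducing power from the cytosol to the respiratory chain beside the malate-aspartate shuttle.

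AQP7 and AQP3 are neighbours on the minus strand of chromosome 9. In GENCODE 29 (GRCh38) AQP7 (ENSG00000165269) spans chr9:33383179-33402682 and AQP3 (ENSG00000165272) spans chr9:33441154-33447633. In the RefSeq annotation 38591 bases and 0 protein-coding genes lie between them. Their promoters are shown because these channels were on the same side of the control in the xenografts and with YY2-sh, where both could be fitted. AQP7 had enough counts there only through the libraries where it was high. In the TRIM15 and FOXRED1 experiments AQP7 had too few counts to be fitted. Its group means there ran opposite to those of AQP3, and its treated and control libraries overlapped. The sequences are RefSeq's (GRCh38.p14), minus strand, 5′ to 3′, and end where the most distal GENCODE transcript of each gene begins. The AQP3 stretch covers 210 bases at chr9:33447634-33447843 and the AQP7 stretch 136 bases at chr9:33402683-33402818. Capitals mark a match to the nuclear receptor motif AGGTCA or its reverse complement TGACCT.
AQP3: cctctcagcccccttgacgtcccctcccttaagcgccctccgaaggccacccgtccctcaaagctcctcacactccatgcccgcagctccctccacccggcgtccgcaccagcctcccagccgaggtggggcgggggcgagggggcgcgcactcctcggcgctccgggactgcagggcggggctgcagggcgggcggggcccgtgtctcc
AQP7: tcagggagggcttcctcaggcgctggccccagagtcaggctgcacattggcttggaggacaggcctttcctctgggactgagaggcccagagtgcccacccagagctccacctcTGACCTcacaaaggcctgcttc
The AQP3 stretch has a GC content of 75.2% and the AQP7 stretch one of 63.2%. Over the whole window of 250 bases before the RefSeq start, AQP7 held AGGTCA 2 times, 136 and 13 bases before the start and both times on the other strand, and AQP3 did not hold it. This motif occurs on either strand in 12.1% of 35116 promoter windows of that length. ATGGCG, the core of the motif bound by YY factors, and the E-box CACGTG were in none of the 8 RefSeq windows matched for AQP3, AQP7, AQP9, GK, GPD1L and GPD2, against 6.5% and 6.34% of all windows. A match is a string of letters and not a binding site, and its absence says only that these letters are not in the window.

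Counts were scaled to library size with TMM normalization and are given as CPM, the normalized read count relative to the size of the library. Differences were fitted with edgeR over all genes with enough counts, and a gene is called where its Benjamini-Hochberg adjusted p is under 0.05. In the xenografts 5 of the 7 genes had enough counts, of which 3 were called higher and 2 lower with HFD. Over all 17012 genes tested there, 25.6% were called higher and 23.9% lower. With TRIM15-OE 4 genes were fitted, 2 called higher and 0 lower, against 12.5% and 9.53% of 15745 genes. With YY2-sh 5 were fitted, 3 called higher and 2 lower, against 36.8% and 38.1% of 16006 genes. With FOXRED1-sh 4 were fitted, 1 called higher and 3 lower, against 16.8% and 19.7% of 15730 genes. The values of treated and control libraries did not overlap for 5, 3, 5 and 3 of the fitted genes in these experiments, in that order, against 56.2%, 37.7%, 76.3% and 46.7% of all genes tested. Nothing is read from these counts, because the genes were chosen with the same contrasts in view. AQP7 had enough counts in the YY2 experiment only through the YY2-sh libraries and in the xenografts only through the ND libraries, the groups where it was high, so a fit of it had to show a difference. AQP9 and GPD1 were fitted in no experiment.

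AQP3 was the most abundant channel in every group. In the xenografts its level was 80.5, 79.5 and 81.0 CPM with HFD and 136.8, 137.8 and 145.9 CPM with ND. All 3 HFD libraries lay below all 3 ND libraries, and the log2 fold change was -0.80 ± 0.037 (standard error, SE), a 1.74-fold lower level. In a bulk sample fewer cells that express a gene and less RNA of that gene per cell cannot be told apart. With YY2-sh the level was 148.1, 149.1 and 152.2 CPM, against 33.7, 35.6 and 32.5 CPM in YY2-NC. Here the treated libraries were the high ones, 4.42-fold above the control with a log2 fold change of 2.15 ± 0.038 (SE). This value ranked 357th from the top among the 16006 genes tested. The share of all genes changed at least as much, in either direction, was read for AQP3, GK, GPD1L and GPD2. In that order it was 6.88%, 50.0%, 10.4% and 12.6% with HFD. It was 36.1%, 15.3%, 60.4% and 61.0% with TRIM15-OE and 3.01%, 56.6%, 57.3% and 83.6% with YY2-sh. For FOXRED1-sh the shares were 42.3%, 55.5%, 11.6% and 61.8%.

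The other differences of AQP3 were small. FOXRED1-sh cells had 445.0, 452.6 and 396.2 CPM and FOXRED1-NC cells 537.4, 539.7 and 507.7 CPM, groups that did not overlap, with a log2 fold change of -0.29 ± 0.054 (SE). TRIM15-OE cells had 40.8, 38.4 and 37.4 CPM and TRIM15-EV cells 35.4, 35.5 and 32.9 CPM. These groups did not overlap either, and the log2 fold change was 0.17 ± 0.053 (SE). This call was lost with DESeq2 and in 5 of the 6 fits that left out a library of the TRIM15 experiment, where the log2 fold change lay between 0.13 and 0.20.

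The level of AQP3 differed more between control cultures of the same cell line than between any treatment and its control. FOXRED1-NC stood at 528.3 ± 17.9 CPM (SD, n = 3), 15.6-fold above YY2-NC at 33.9 ± 1.53 CPM, although both carried shControl for the same time and were sequenced to similar depth. From high to low the 8 groups were FOXRED1-NC, FOXRED1-sh, YY2-sh, ND, HFD, TRIM15-OE, TRIM15-EV and YY2-NC, and of these neighbours only TRIM15-EV and YY2-NC overlapped. Set against gene length, AQP3 reached 179.1 CPM per kilobase of exon in FOXRED1-NC, above 99.4% of the genes tested in that experiment, and 11.5 CPM per kilobase in YY2-NC, above 72.4%. The experiments were deposited as separate tables, so a difference between their controls and a difference between batches cannot be told apart. Scaling all 24 libraries together changed no CPM value by more than 3.02%.

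AQP7 was expressed at a far lower level. In the xenografts it had 9, 7 and 11 counts with HFD and 21, 38 and 19 counts with ND, or 0.355 ± 0.0579 and 0.822 ± 0.0538 CPM (SD, n = 3 each). The groups did not overlap, HFD was the low one, and the log2 fold change was -1.24 ± 0.27 (SE). In YY2-sh libraries it had 49, 62 and 73 counts and in YY2-NC libraries 1, 4 and 5 counts, or 3.55 ± 0.505 against 0.181 ± 0.11 CPM (SD, n = 3 each). The fitted log2 fold change was 4.24 ± 0.31 (SE), and it lay between 3.82 and 4.57 in the alternative fits. AQP7 had enough counts here only through YY2-sh, so its place among all genes is not given. Even with YY2-sh the level per kilobase of exon was 0.676 CPM, against 50.8 CPM for AQP3 in the same libraries.

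In the remaining experiments AQP7 had too few counts to be fitted. TRIM15-OE libraries had 1, 0 and 2 counts and TRIM15-EV libraries 1, 2 and 3, all at the floor of 3 counts or below. FOXRED1-sh libraries had 10, 12 and 8 counts and FOXRED1-NC libraries 1, 3 and 9, so the groups overlapped. AQP7 has pseudogene copies, among which reads of similar sequence could be divided. AQP7P1 to AQP7P5 had 0 to 7 counts in all libraries, and AQP7B had 0 to 2 counts in YY2-sh and 2 to 5 in YY2-NC. Elsewhere AQP7B was near or above the level of AQP7. It had 9 to 13 counts in FOXRED1-sh and 2 to 14 in FOXRED1-NC, where AQP7 had 8 to 12 and 1 to 9. In TRIM15-OE it had 1 to 4 counts and in TRIM15-EV 5 to 7. Xenografts had fewer AQP7B than AQP7 counts, at 2 to 4 with HFD and 3 to 4 with ND. No copy was high in the YY2-sh libraries in which AQP7 was high. How reads that match several copies were assigned is unknown, and whether AQP7 received reads of its copies was not tested.

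AQP9 was at or near 0 throughout. It had 3, 0 and 2 counts with HFD and 0, 4 and 0 with ND, and 0 counts in all libraries of YY2-NC and FOXRED1-NC. Its highest value was 6 counts in a TRIM15-EV library. The gene shares 354 exon bases with ALDH1A2 on the opposite strand, and it is not settled whether reads were counted by strand. At this depth no difference of AQP9 could be detected.

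**Figure D1:**
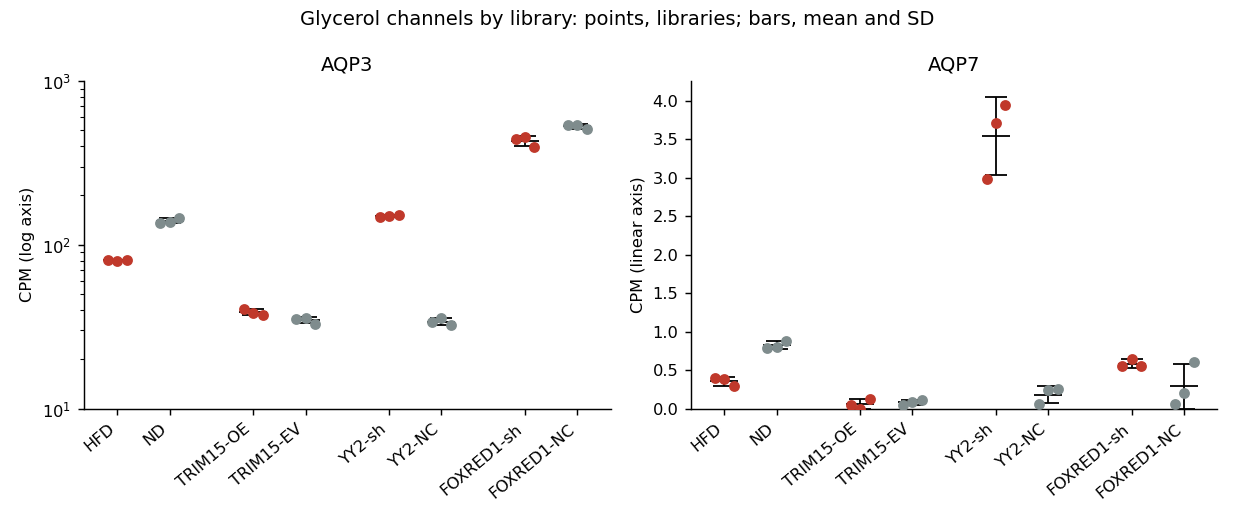
Level of AQP3 (left, CPM on a log axis) and AQP7 (right, CPM on a linear axis) in each of the 24 libraries, by group. Points are libraries, with treated groups in red and controls in grey, and bars give the mean and SD. AQP3 runs from 32.5 CPM in a YY2-NC library to 539.7 CPM in a FOXRED1-NC library, and AQP7 is above 1 CPM in the YY2-sh libraries alone, at 2.98 to 3.95 CPM.

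Because AQP7 is known from fat cells, the levels of fat cell markers were set beside it. Of 10 adipocyte markers, 6 had at most 3 counts in every library of every group, among them ADIPOQ with 0 to 1 count, LEP with 0 to 1 and FABP4 with 0 to 1. The summed level of all 10 was 11.7 to 13.6 CPM with HFD and 10.2 to 10.9 CPM with ND. Most of it came from LIPE, at 9.67 ± 0.709 and 7.72 ± 0.479 CPM (SD, n = 3 each). Fat cells of the mouse are not followed in these human genes, so the sum cannot show a change in them. In the YY2 experiment it was 17.1 to 21.1 CPM in YY2-sh and 7.91 to 8.18 CPM in YY2-NC, higher like AQP7. Of the 3 markers that could be fitted there, PLIN4, a coat protein of lipid droplets, rose (log2 fold change 2.87 ± 0.17, SE; edgeR adjusted p = 2.77e-10), as did LIPE, hormone-sensitive lipase (0.67 ± 0.10, SE; edgeR adjusted p = 1.75e-05). PLIN1, a relative of PLIN4, had 10 to 21 counts in YY2-sh and 4 to 5 in YY2-NC and passed the filter only through YY2-sh. Other markers also differed in this experiment. Fibroblast markers summed to 42.5 to 44.4 CPM in YY2-sh and 10.9 to 12.2 CPM in YY2-NC, COL1A1 rising by 2.00 on the log2 scale (edgeR adjusted p = 7.28e-14), while 5 of the 8 markers of that list had at most 3 counts in every YY2-sh library. Red cell markers were at 1.34 to 1.74 CPM in YY2-sh and 0.22 to 0.532 CPM in YY2-NC. Of these 5 markers, 4 had at most 3 counts in every YY2-sh library. The other marker, ALAS2, passed the filter only through YY2-sh. The epithelial markers of OE33 cells summed to 17540 to 18117 CPM in YY2-sh and 12415 to 13189 CPM in YY2-NC, 5 of the 8 being called higher and 3 lower. The part of these cells or genes in the AQP3 and AQP7 values was not tested.

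Genes on either side of the pair were read for comparison, a choice made after the values of AQP3 and AQP7 had been seen. NFX1, 12033 bases beyond AQP7, fell with YY2-sh (log2 fold change -0.46, standard error 0.037, edgeR adjusted p = 1.16e-08). NOL6, 13759 bases beyond AQP3, also fell there, from between 86.6 and 90.8 CPM to between 18.9 and 20.8 CPM (log2 fold change -2.15, standard error 0.047, edgeR adjusted p = 3.28e-15). The next tested genes outward differed in sign, with CHMP5 at 0.24 (edgeR adjusted p = 1.15e-05) and PRSS3 at -0.39 on the log2 scale (edgeR adjusted p = 9.87e-08). In the xenografts NFX1 fell by 0.19 and NOL6 rose by 0.45 on the log2 scale (edgeR adjusted p = 4.64e-04 and 1.55e-06). With YY2-sh both of the closest neighbours thus fell while AQP3 and AQP7 were higher.

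GK (ENSG00000198814, chrX:30653359-30731456, plus strand) differed little within an experiment and much between experiments. Its level was 69.1, 67.1 and 67.9 CPM with HFD and 58.9, 58.1 and 59.3 CPM with ND, a log2 fold change of 0.21 ± 0.038 (SE). With TRIM15-OE it was 33.8, 33.9 and 34.0 CPM and with TRIM15-EV 28.6, 27.0 and 26.9 CPM, a log2 fold change of 0.30 ± 0.051 (SE). The treated libraries were the high ones in both. YY2-sh was the exception, with 22.7, 23.4 and 23.9 CPM against 30.0, 32.2 and 30.3 CPM in YY2-NC and a log2 fold change of -0.40 ± 0.056 (SE). FOXRED1-sh libraries had 161.5, 156.8 and 162.6 CPM and FOXRED1-NC libraries 139.0, 138.9 and 138.1 CPM, a log2 fold change of 0.21 ± 0.052 (SE).

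In none of the 4 experiments did the GK values of treated and control libraries overlap. The difference was 1.16-fold in the xenografts and in the FOXRED1 experiment, 1.23-fold with TRIM15-OE and 1.32-fold, in the other direction, with YY2-sh. The control groups ranged 5.05-fold, from 27.5 ± 0.938 CPM in TRIM15-EV to 138.7 ± 0.505 CPM in FOXRED1-NC (SD, n = 3 each), and no neighbours in the order of the 8 groups overlapped. GK shares 74 exon bases with its antisense gene GK-AS1, which had 8 to 140 counts in all libraries. The copies GK2 and GK3 had 0 and at most 5 counts.

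GPD1L (ENSG00000152642, chr3:32105689-32168713, plus strand) was the cytosolic dehydrogenase that these cells expressed. Its level was 37.1, 34.1 and 33.0 CPM with HFD and 21.7, 22.5 and 20.4 CPM with ND, so every HFD library was the higher (log2 fold change 0.68, standard error 0.059). In YY2-sh it was 40.4, 38.0 and 38.1 CPM and in YY2-NC 28.3, 29.6 and 30.7 CPM (log2 fold change 0.39, standard error 0.052). FOXRED1-sh libraries were instead the low ones, with 32.6, 32.0 and 29.5 CPM against 48.5, 49.9 and 51.6 CPM in FOXRED1-NC (log2 fold change -0.67, standard error 0.073). With TRIM15-OE the level was 27.9, 27.4 and 29.5 CPM and with TRIM15-EV 26.4, 25.3 and 27.6 CPM. These last groups overlapped and the log2 fold change of 0.10 ± 0.058 (SE) was not called.

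GPD1 itself was barely detected. It had 0 to 5 counts in every library, with 2, 0 and 1 in HFD and 2, 2 and 2 in ND, and 0, 1 and 0 in both FOXRED1-sh and FOXRED1-NC. Its highest group mean, in YY2-NC, was 0.0423 CPM per kilobase of exon, against 6.15 CPM per kilobase for GPD1L in the same libraries. No difference of GPD1 was detectable at this depth.

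GPD2 (ENSG00000115159, chr2:156435290-156613735, plus strand) was the most even of the fitted genes across groups. Its level was 147.6, 153.5 and 148.0 CPM with HFD and 101.1, 95.1 and 97.2 CPM with ND. All HFD libraries were higher, with a log2 fold change of 0.61 ± 0.037 (SE), and this was the largest difference of GPD2 among the 4 experiments. YY2-sh libraries had 140.4, 138.4 and 136.5 CPM and YY2-NC libraries 149.8, 153.0 and 155.7 CPM, without overlap (log2 fold change -0.14, standard error 0.03).

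The remaining differences of GPD2 were at the edge of the spread. FOXRED1-sh libraries had 100.3, 100.1 and 111.2 CPM and FOXRED1-NC libraries 109.6, 116.5 and 125.5 CPM. These groups overlapped, and the call at a log2 fold change of -0.18 ± 0.066 (SE) was lost with DESeq2's size factors, with the stricter filter and without each of FOXRED1-NC replicates 2 and 3 and FOXRED1-sh replicates 1 and 2, with values between -0.23 and -0.12. TRIM15-OE libraries had 129.9, 134.7 and 135.6 CPM and TRIM15-EV libraries 124.0, 123.7 and 126.8 CPM, a log2 fold change of 0.09 ± 0.035 (SE) that was not called, although the groups did not overlap. Without TRIM15-OE replicate 1 it was called.

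Per kilobase of exon GPD2 lay above GPD1L in every group, at 13.7 to 21.4 CPM against 4.49 to 10.4 CPM. From highest to lowest group GPD2 differed 1.56-fold, GPD1L 2.32-fold, GK 6.87-fold and AQP3 15.6-fold. In the order of groups for GPD2, YY2-NC overlapped HFD, and TRIM15-EV, FOXRED1-NC, FOXRED1-sh and ND each overlapped the next. For GPD1L the groups FOXRED1-sh, YY2-NC, TRIM15-OE and TRIM15-EV formed such a chain.

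**Figure D2:**
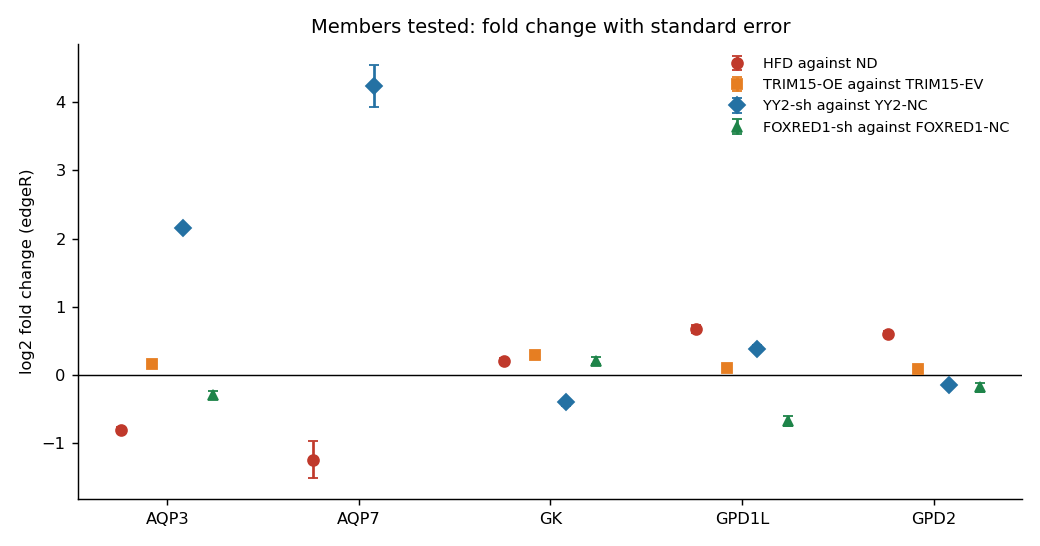
Log2 fold change of treated against control for the 5 genes that could be fitted, with 1 symbol per experiment and bars for the standard error. The YY2-sh values of AQP3 (2.15) and AQP7 (4.24) lie far above the others. AQP7 was fitted only in the xenografts and with YY2-sh, in both through its high group alone.

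The ratio of the dehydrogenases within a library does not depend on library scaling. With HFD there were 25.2, 22.2 and 22.3 GPD1L counts for every 100 GPD2 counts, and with ND 21.5, 23.7 and 21.0. These groups overlapped, both genes being higher with HFD by a similar amount. TRIM15-OE and TRIM15-EV also overlapped, at 20.4 to 21.8 and 20.4 to 21.7. In YY2-sh the ratio was 28.7, 27.5 and 27.9 and in YY2-NC 18.9, 19.4 and 19.7, without overlap. In FOXRED1-sh it was 32.5, 31.9 and 26.5 and in FOXRED1-NC 44.3, 42.8 and 41.1, the low group here being the treated one. The mean of FOXRED1-NC, 42.7 ± 1.6 (SD, n = 3), was the highest of the 8 groups. The ratio is made from the values that chose the genes and was not tested.

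The changes of the fitted genes did not run in parallel with HFD, YY2-sh or FOXRED1-sh. AQP3 and AQP7 were lower and GK, GPD1L and GPD2 higher with HFD. With YY2-sh the channels and GPD1L were higher and GK and GPD2 lower. With FOXRED1-sh GK was higher and AQP3, GPD1L and GPD2 lower, the GPD2 groups overlapping. TRIM15-OE gave positive log2 fold changes of AQP3, GK, GPD1L and GPD2, those of GPD1L and GPD2 not being called. Over the 24 libraries, each gene centred on the mean of its experiment, the Pearson correlation of log2 CPM was -0.751 between AQP3 and GK and 0.678 between GPD1L and GPD2. Across the same libraries and 13933 genes, the patterns most like AQP3 were those of PPL (0.989), TBL1X (0.981) and CYP1B1 (0.981). In the HFD, TRIM15-OE, YY2-sh and FOXRED1-sh comparisons AQP3 was at -0.80, 0.17, 2.15 and -0.29 on the log2 scale. CYP1B1 was at -0.70, 0.37, 2.25 and -0.24 in the same order. PPL and TBL1X changed less than AQP3. Their values were -0.37, 0.03, 0.84 and -0.15 for PPL and -0.22, 0.13, 0.84 and -0.14 for TBL1X. PPL was not called with TRIM15-OE, nor TBL1X with FOXRED1-sh. GK was most like PLAUR (0.943), VEZF1 (0.943) and CSF3 (0.931), GPD1L most like SEL1L3 (0.963), GFOD1 (0.961) and CAV2 (0.959), and GPD2 most like ERO1A (0.976), ERAP2 (0.973) and RPS6KA3 (0.971). These points share libraries and treatments and are a description only.

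The genes around the 7 in glycerol metabolism were read from 6 lists with 58 genes, of which 45 were tested in the first 3 experiments and 44 in the FOXRED1 experiment. The lists were glycerol release from stored fat, other aquaporins, other glycerol enzymes, acylation of glycerol-3-phosphate towards phospholipids and triglycerides, supply of dihydroxyacetone phosphate, and the malate-aspartate shuttle. With HFD 15 list genes were called higher and 8 lower, where 25.6% and 23.9% of all genes tested were. With TRIM15-OE the list counts were 6 and 10, against 12.5% and 9.53% of all genes. Without TRIM15-EV replicate 2 they were 2 and 4. Without TRIM15-EV replicate 3 they were 3 and 4, no share of all genes being given for either fit. With YY2-sh they were 12 and 25, against 36.8% and 38.1%, and with FOXRED1-sh 8 and 15, against 16.8% and 19.7%. The median log2 fold change of the tested list genes was 0.04, -0.06, -0.19 and -0.06 in these comparisons, against -0.012, -0.007, -0.008 and 0.012 over all genes tested. Of the other 11 aquaporins, 9 were tested in no experiment and had at most 7 counts, among them AQP10, a further glycerol channel, with 0 counts.

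The malate-aspartate shuttle, which does the same work as the glycerol phosphate shuttle by another route, was read as the counterpart of GPD1L and GPD2. With YY2-sh all 7 of its genes fell, where 38.1% of all genes tested did, with a median of -0.69 on the log2 scale. They ranged from MDH2, mitochondrial malate dehydrogenase, at -0.25 to SLC25A13, the aspartate-glutamate carrier citrin, which went from 152.9 ± 2.11 to 65.8 ± 2.30 CPM (SD, n = 3 each; log2 fold change -1.22, standard error 0.034, edgeR adjusted p = 3.93e-14). With FOXRED1-sh 5 of 7 fell, where 19.7% of all genes tested did, with a median of -0.33, and GOT2, mitochondrial aspartate aminotransferase, had the smallest p (log2 fold change -0.46, standard error 0.051, edgeR adjusted p = 1.86e-06). With TRIM15-OE 3 of 7 fell and 0 rose, against 9.53% and 12.5% of all genes, SLC25A11 by 0.18 on the log2 scale (edgeR adjusted p = 0.0182). With HFD 4 fell and 1 rose, against 23.9% and 25.6% of all genes, and SLC25A13 fell by 0.33 on the log2 scale (edgeR adjusted p = 5.19e-06).

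The list for glycerol release holds lipases and also regulators of them, such as the inhibitor G0S2, so its counts give no direction of release. In this list 5 of 9 tested genes rose and 1 fell with HFD, against 25.6% and 23.9% of all genes. G0S2, an inhibitor of adipose triglyceride lipase, rose by 0.67 on the log2 scale there (standard error 0.045, edgeR adjusted p = 3.87e-09) and by 0.51 with TRIM15-OE (standard error 0.072, edgeR adjusted p = 1.71e-04), where it was the only gene of the list called, 12.5% of all genes being called higher. With YY2-sh 4 rose and 5 fell, against 36.8% and 38.1% of all genes. PNPLA2, adipose triglyceride lipase, went from 80.7 ± 3.16 to 240.7 ± 2.76 CPM (log2 fold change 1.58, standard error 0.033, edgeR adjusted p = 2.03e-15). Its inhibitor G0S2 went from 51.5 ± 0.598 to 20.5 ± 0.534 CPM (log2 fold change -1.33, standard error 0.048, edgeR adjusted p = 8.31e-13). LIPG, endothelial lipase, fell by 1.98 on the log2 scale (edgeR adjusted p = 1.43e-14). With FOXRED1-sh 3 rose and 2 fell, against 16.8% and 19.7% of all genes, the smallest p belonging to MGLL, which cleaves monoglycerides to glycerol and fell by 0.40 on the log2 scale (edgeR adjusted p = 3.11e-05).

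Among the 7 tested other glycerol enzymes, 3 were called higher and 2 lower with HFD, 0 and 3 with TRIM15-OE, 1 and 5 with YY2-sh, and 1 and 3 with FOXRED1-sh. The shares of all genes called higher and lower were 25.6% and 23.9%, 12.5% and 9.53%, 36.8% and 38.1%, and 16.8% and 19.7% in the same order. AKR1B10, an aldo-keto reductase, fell with HFD (log2 fold change -1.15, standard error 0.21, edgeR adjusted p = 2.41e-04) and with FOXRED1-sh (-0.78, standard error 0.25, edgeR adjusted p = 0.0187). It had 3 to 5 counts in TRIM15-OE and 14 to 23 in TRIM15-EV, and 13 to 17 in YY2-sh and 5 to 9 in YY2-NC, and in these experiments it passed the filter only through its high group. Reads may be divided between it and related aldo-keto reductases. With YY2-sh GLYCTK, glycerate kinase, fell by 1.71 (edgeR adjusted p = 1.61e-04) and PGP, a phosphatase that acts on glycerol-3-phosphate, by 1.39 on the log2 scale (edgeR adjusted p = 7.44e-13). With FOXRED1-sh the smallest p was that of AKR1B1, aldose reductase, which fell by 0.35 on the log2 scale (edgeR adjusted p = 1.10e-05).

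The list for acylation of glycerol-3-phosphate also holds enzymes of later steps and others that do not use this metabolite itself. Of its 16 tested genes, 4 rose and 1 fell with HFD and 5 and 2 with TRIM15-OE. The counts were 5 and 7 with YY2-sh, and 3 and 4 with FOXRED1-sh, to be read against the same shares of all genes. DGAT2, which makes triglycerides in the last step, rose with HFD by 0.60 on the log2 scale (edgeR adjusted p = 6.53e-08). LPIN3, a phosphatidate phosphatase, fell by 0.20 with TRIM15-OE (edgeR adjusted p = 0.0029). AGPAT5, an acyltransferase for lysophosphatidate, fell with YY2-sh by 1.26 (edgeR adjusted p = 2.55e-14), and GPAT3, a glycerol-3-phosphate acyltransferase, with FOXRED1-sh by 0.54 on the log2 scale (edgeR adjusted p = 1.68e-05).

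Of the 4 genes supplying dihydroxyacetone phosphate, ALDOA, an aldolase, rose with HFD by 0.42 on the log2 scale (edgeR adjusted p = 1.23e-05). ALDOC, the brain form, fell with FOXRED1-sh from 27.9 ± 1.71 to 10.9 ± 1.60 CPM (log2 fold change -1.35, standard error 0.11, edgeR adjusted p = 7.04e-08). Of the other aquaporins AQP11, a channel of intracellular membranes, rose with FOXRED1-sh from 3.29 ± 0.44 to 6.85 ± 1.54 CPM (SD, n = 3 each; log2 fold change 1.06, standard error 0.20, edgeR adjusted p = 3.85e-04). Elsewhere no aquaporin of that list was called: the smallest p were those of AQP11 with HFD (edgeR adjusted p = 0.126) and of AQP1 with TRIM15-OE and YY2-sh (edgeR adjusted p = 0.23 and 0.647).

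**Figure D3:**
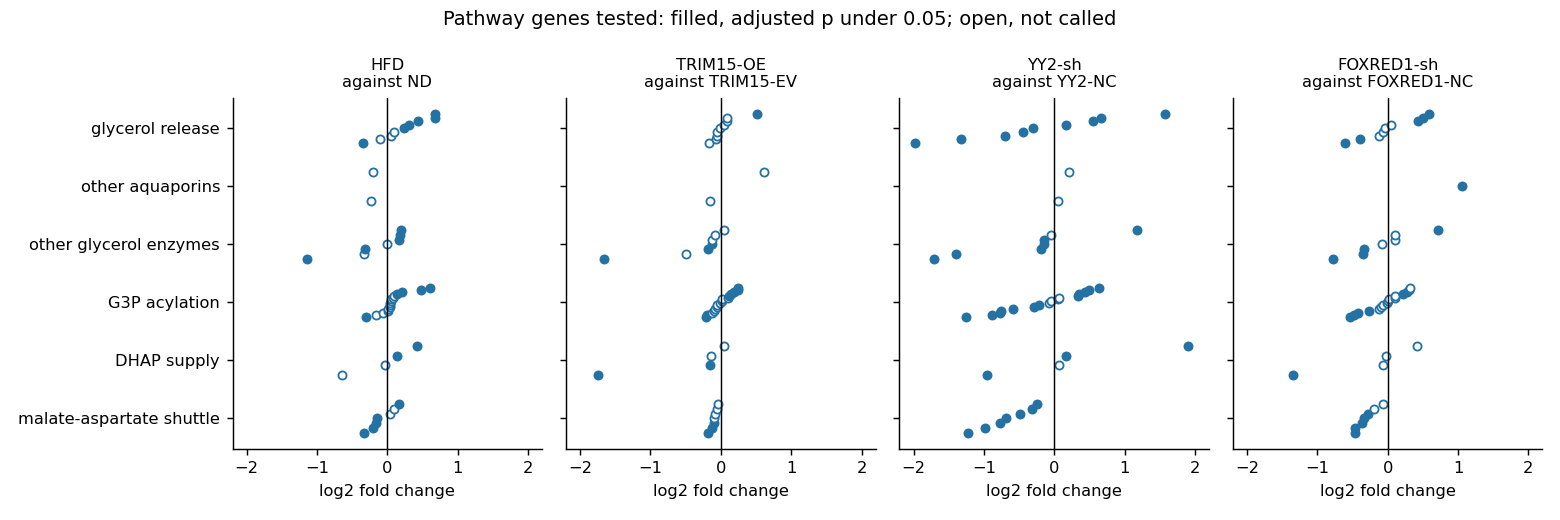
Log2 fold change of every tested gene of the 6 lists, 1 panel per comparison and 1 row per list, with filled points for an adjusted p under 0.05 and open points for genes not called. All 7 points of the malate-aspartate shuttle lie below 0 with YY2-sh, and with TRIM15-OE the called genes of that list stay between -0.18 and -0.10.

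The targeted genes were read as a check of the labels. TRIM15 had 111, 130 and 181 counts in TRIM15-OE and 0 in each TRIM15-EV library, YY2 had 11, 12 and 11 counts in YY2-sh and 43, 40 and 46 in YY2-NC, and FOXRED1 had 183, 207 and 129 in FOXRED1-sh and 322, 259 and 254 in FOXRED1-NC. Total counts lay between 14299807 and 45994561 per library. Epithelial markers of OE33 cells summed to between 11445 and 18117 CPM over all libraries. Mouse cells of the tumors are not followed in these human genes, so marker sums in the xenografts do not give the cell content of the tumors. In the xenografts the summed markers of other cell types lay between 4.61 and 6.06 CPM for macrophages, 0.0546 and 0.577 for endothelium, 0.0877 and 0.367 for muscle and 0.112 and 0.437 for red cells. Fibroblast markers were at 23.9 to 27.3 CPM with HFD and 30.6 to 33.8 with ND, carried by COL1A1 (log2 fold change -0.33, standard error 0.06, edgeR adjusted p = 2.54e-04), while COL1A2 had at most 4 counts in these libraries. In the FOXRED1 experiment they were at 38.5 to 41.8 CPM in FOXRED1-sh and 24.3 to 25.5 CPM in FOXRED1-NC, COL1A1 rising by 0.71 on the log2 scale (edgeR adjusted p = 1.53e-06). In the TRIM15 experiment red cell markers reached 10.7 CPM, and the part of these markers in the values of the 7 genes was not tested.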

How the data were processed

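The authors sequenced poly-A mRNA, purified from total RNA, in 24 libraries, 12 treated and 12 control. The deposited tables hold raw counts per Ensembl gene for each library, 1 table per experiment. The submitters' processing notes name the builds hg38 and mm10 without a role. It is therefore unknown whether, and how, mouse reads of the xenografts were removed. The aligner and counter are not given in the sources used here. The labels name a directional library kit and the methods a non-directional one, so the use of strand is unknown. Symbols were added by Ensembl identifier from a list of gene names, with gaps filled from RefSeq, to 61757 of 61860 rows. Exon lengths and overlaps of genes were taken from GENCODE 29.

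CPM values were computed here from these counts with TMM factors within each experiment. Genes kept by filterByExpr (minimum count 10, minimum total 15) were fitted with edgeR 4.0.16 (glmQLFit and glmQLFTest, R 4.3.3), treated against control within each experiment, p-values being adjusted after Benjamini and Hochberg across every gene fitted, with a threshold of 0.05. Standard errors are the log2 fold change over the square root of F. DESeq2 1.42.0 served as an alternative. The procedures were tested on simulated data. Log2 CPM for correlations used a prior count of 2, and genes with a mean of at least 1 CPM that were tested in all experiments.

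The members and the gene and marker lists were chosen with earlier results of these data known. List genes were named where called with a fold change of at least 2, or, where a list had none in an experiment, by the smallest adjusted p. A gene that met this rule is not reported here. Replicate numbers come from the titles. No shared origin is stated for them, and they were not used as a block. Total counts of 14299807 to 45994561 per library make 3 counts the floor below which levels are not compared. This covers counting error only. The smallest p that an exact permutation test of 3 against 3 libraries allows is 0.1. Protein sequences and the GPD1 promoter were not analysed here.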

Additional observations from a re-analysis of the deposited data

How the results depend on the processing

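The 18 fold changes of the 7 genes were recomputed in 196 alternative fits, with DESeq2's size factors or test, no filter, a filter of at least 10 counts in every library, a replicate block, and each library left out. None reversed, 195 moved by less than the spread between libraries, and the AQP7 value with YY2-sh moved to 3.82 without YY2-NC replicate 1. AQP7 could not be fitted in any experiment under the stricter filter, which left 1 gene called lower with HFD. Requiring a fold change of at least 1.2 left 1 gene higher with TRIM15-OE, 1 lower with YY2-sh and 0 higher with FOXRED1-sh. It left 7 list genes higher and 5 lower with HFD, and 1 and 2 with TRIM15-OE. DESeq2's test called 1 of the 7 genes and 3 list genes higher with TRIM15-OE. With TRIM15-OE, leaving out single libraries gave 1 to 2 of the 7 genes higher, 2 to 6 list genes higher and 4 to 14 lower. The lowest list counts were those without TRIM15-EV replicate 2, at 2 higher, and without TRIM15-EV replicates 2 or 3, at 4 lower. The shares of all genes called under these settings are not given, so nothing is read from these counts. The causes were not tested.

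Samples with the same replicate number did not deviate together over all genes tested, with correlations between -0.028 and 0.097. Over genes above a mean log2 CPM of 2 the FOXRED1 pairs reached 0.15, 0.1 and 0.3, and in that experiment 2 of 3 treated libraries correlated best with their own number. With the replicate block, the counts called higher and lower were 3 and 2 with HFD, 2 and 0 with TRIM15-OE, 3 and 2 with YY2-sh, and 1 and 3 with FOXRED1-sh, and the list genes 16 and 8, 5 and 11, 12 and 25, and 8 and 15. For the block too, the shares of all genes called are not given. The few counts of AQP7, AQP9 and GPD1 limit what could be seen of them.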
